A study of Homo sapiens with 28 samples.

Results

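Bisphenol A (BPA), a monomer of polycarbonate plastics and epoxy resins that is studied as an endocrine disruptor, was given to HepG2 cells at 75 µM for 24 h. Its 4 libraries were set against the 4 libraries of the solvent control dimethyl sulfoxide (DMSO), 8 of the 28 libraries of the series, and all genes of the table were considered. HepG2 is an established human liver cancer line, and the cells in every group were at 17 passages or fewer, seeded at 600000 cells per well and kept without serum for 24 h before the exposure. DMSO did not exceed 0.1% of the medium. The other groups, with 4 libraries each, were 100 nM of the dioxin TCDD, 10 µM of the perfluorinated surfactant PFOS and 0.1 µM tributyltin chloride (TBTCl), all in DMSO, 0.5 µM cadmium chloride (CdCl2), and water as its control. Per the labels, the 4 replicates of a group were independent experiments, each with technical triplicates, so the p-values below measure the spread between these cultures of a single line. A single dose and a single time were used, and the exposure lies within a serum-free culture of a tumour line.

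Of 63139 genes in the table, 18849 had enough reads to be tested. Levels are CPM, counts scaled to library size with TMM factors. Changes are log2 fold changes of BPA over DMSO from edgeR's quasi-likelihood fit of all 28 libraries. Their standard error was derived from the test, as the absolute change divided by the square root of the F statistic. The labels do not say whether BPA and DMSO cultures of the same replicate number belong together. Such pairing was inferred from weak correlations, and the main fit does not use it. Calls and counts below come from the main fit unless another is named. Where adding that number as a block (the replicate block) alters a call, the adjusted p with it is given. Genes with an adjusted p (Benjamini-Hochberg) under 0.05 were called, and "rose" and "fell" are used only of called genes. In all, 6588 genes (35.0%) were called, 3268 higher (17.3%) and 3320 lower (17.6%), and the shares of genes called in each direction are the background against which each gene group below can be read. At 2-fold or more, 822 genes rose (4.36%) and 1941 fell (10.3%), and in 7021 genes (37.2%) the 4 BPA and the 4 DMSO libraries did not overlap. The median change over all tested genes was -0.02. Upper-quartile scaling and library size alone moved it by -0.13 and -0.12, with 2239 genes higher and 4345 lower, and 2169 higher and 4321 lower. Totals ran from 32289754 to 53400317 counts in BPA and from 31404432 to 66042414 counts in DMSO, where 3 counts in a library stand for 0.0435 to 0.0993 CPM, a floor that covers counting error only. In bulk RNA, fewer cells of a type and less RNA of a gene per cell cannot be told apart.

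BPA is a weak ligand of estrogen receptors and is known to bind other nuclear receptors, and the liver clears it mainly by glucuronidation and sulfation. At high doses, electrophilic metabolites of phenols can modify KEAP1, which releases the transcription factor NRF2 to switch on glutathione synthesis and detoxification genes. Separately, 4 kinases that sense amino acid shortage, unfolded protein, haem shortage or double-stranded RNA converge on the factor ATF4, whose targets supply amino acids and their tRNA ligases, a programme called the integrated stress response. Cells that leave the cycle lose the DNA replication genes driven by E2F and the mitotic genes repressed by the DREAM complex through a promoter element called CHR.

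The hepatocyte label was checked first on liver products. ALB, encoding albumin, averaged 13602 ± 6392 CPM in DMSO and 8208 ± 2488 CPM (SD, n = 4 libraries each, as for every level below) in BPA, and the fetal liver protein gene AFP and the lipoprotein gene APOB averaged 10929 and 8811 CPM in DMSO. Among markers of leukocytes, endothelium and stroma, PTPRC, KDR and COL1A2 had 0 counts in all 8 libraries and CD3E had at most 1 count. Of the 9 such markers that could be tested, CD14 rose from 1.45 ± 0.165 to 10.9 ± 5.35 CPM, and PECAM1 and LYZ fell. The summed level of that list was 721 to 1545 CPM in BPA and 1936 to 2534 CPM in DMSO, nearly all of it LYZ, and 50.9 to 70.2 against 61.0 to 66.7 CPM without LYZ. For 3 tested biliary markers the sums were 509 to 558 CPM in BPA and 806 to 954 CPM in DMSO, with KRT19 alone called, lower. The part of these markers in the results below was not tested.

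**Figure D1:**
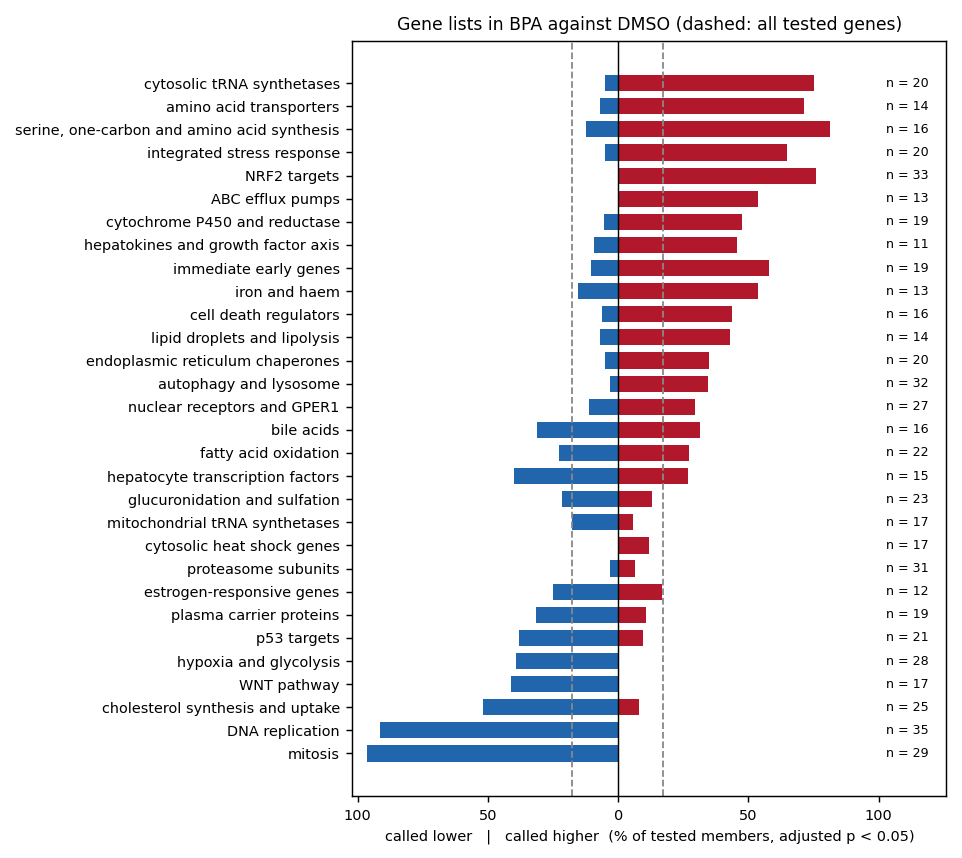
Share of the tested members of 30 gene lists that were called higher (right) or lower (left) in BPA against DMSO; dashed lines give the shares over all tested genes, 17.3% and 17.6%. The lists of amino acid supply, tRNA charging and NRF2 targets extend furthest to the right, and mitosis and DNA replication furthest to the left.

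Genes that supply amino acids and charge tRNAs rose together. Of 20 cytosolic aminoacyl-tRNA synthetase genes, whose enzymes load amino acids onto tRNAs for translation in the cytosol, 15 rose and only RARS1 fell, with a median change of 0.60, whereas of 17 mitochondrial synthetase genes 1 rose (3 with the replicate block) and 3 fell, with a median of -0.04. All 4 BPA libraries, at 385, 427, 442 and 412 CPM in replicates 1 to 4, lay above the DMSO libraries, at 138, 166, 201 and 182 CPM, for SARS1, the seryl-tRNA synthetase. Its change was 1.28 ± 0.12 (edgeR adjusted p = 1.13e-08). WARS1, the tryptophanyl-tRNA synthetase, stood at 273, 311, 224 and 241 CPM in BPA and at 76.8, 66.3, 64.5 and 96.3 CPM in DMSO, a 3.45-fold rise (adjusted p = 3.33e-07). Again every BPA library was above every DMSO library, and the mean in the other groups lay between 68.1 CPM (TCDD) and 85.9 CPM (PFOS).

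MARS1 (1.37 ± 0.16), AARS1 (1.10 ± 0.19), GARS1 (1.08 ± 0.16) and YARS1 (1.07 ± 0.11), ligases for methionine, alanine, glycine and tyrosine, each rose by more than 2-fold. The matching mitochondrial gene MARS2 (0.46 ± 0.25) was not called (adjusted p = 0.0436 with the replicate block), and RARS2, the mitochondrial arginine ligase gene, fell by 0.49. GARS1 encodes both the cytosolic and the mitochondrial glycine enzyme. The calls for FARSA and FARSB depended on the scaling or on single libraries, and 13 to 15 cytosolic genes were called higher with any 1 library left out.

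Serine, glycine and folate-cycle enzymes rose with them: 13 of 16 tested genes of serine, folate-cycle and amino acid synthesis were higher and 2 were lower (median 0.76). SHMT2, which makes glycine from serine in mitochondria, went from 313, 368, 468 and 473 CPM in DMSO replicates 1 to 4 to 754, 794, 882 and 854 CPM in BPA. Groups did not overlap, and the change was 1.02 ± 0.15 (adjusted p = 1.51e-05). MTHFD2 (1.13 ± 0.22), MTHFD1L (1.09 ± 0.14) and ALDH1L2 (1.43 ± 0.33), mitochondrial folate enzymes, rose by about as much, as did CTH (1.25 ± 0.28), which makes cysteine. ASNS, the asparagine synthetase, was scarce in these cells and rose from 1.46 ± 0.696 to 4.51 ± 1.32 CPM. The first enzymes of serine synthesis, PHGDH (0.63 ± 0.16) and PSAT1 (0.72 ± 0.13), rose less. Against the direction of the list, ALDH18A1, which opens proline synthesis, fell by 1.37 to 167 ± 36.1 CPM, and SHMT1, the cytosolic counterpart of SHMT2, fell by 0.94.

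Among amino acid transporters, 10 of 14 tested genes rose and 1 fell (median 0.99), and the count of 10 was the same with any 1 library left out. SLC3A2, the heavy chain shared by several exchangers, was at 817, 1143, 678 and 618 CPM in BPA replicates 1 to 4 and at 259.7, 214, 202 and 298 CPM in DMSO, so that the lowest BPA library had over 2 times the highest DMSO library. The change was 1.74 ± 0.20 (adjusted p = 4.86e-07). Its light-chain partners SLC7A5, a leucine carrier, and SLC7A11, the cystine carrier, rose by 1.17 ± 0.19 and 1.51 ± 0.27, and the glutamine carriers SLC1A5 and SLC38A3 by 0.98 ± 0.13 and 1.10 ± 0.15. SLC38A2, another glutamine carrier known as an ATF4 target, was at 768 ± 120.3 against 708 ± 143 CPM and was not called.

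Of 20 tested genes of the integrated stress response itself, 13 rose and 1 fell (median 0.91). DDIT3, which encodes the stress factor CHOP (ENSG00000175197, chr12:57516588-57521737 in GRCh38), stood at 75.8, 88.4, 66.1 and 47.4 CPM in BPA and at 12.0, 14.5, 17.4 and 16.3 CPM in DMSO replicates 1 to 4. The lowest BPA library, replicate 4, was more than 2 times the highest DMSO library, and the change was 2.20 ± 0.22 (adjusted p = 3.23e-08). ATF4 itself rose by 0.80 ± 0.19, from 473 ± 89.7 to 824 ± 79.4 CPM, and CEBPG, which pairs with it, by 1.38 ± 0.16. CEBPB (2.19 ± 0.27), ATF3 (1.85 ± 0.30), TRIB3 (1.68 ± 0.22) and NUPR1 (2.28 ± 0.26), all downstream stress regulators, rose further. PPP1R15A, whose product reverses the phosphorylation of eIF2 alpha, rose by 1.62 ± 0.18.

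The 4 kinase genes that start this response did not rise: EIF2AK1, EIF2AK2 and EIF2AK3 were not called (changes of -0.01, -0.14 and -0.06), and EIF2AK4, the sensor of uncharged tRNA, fell by 0.79 to 80.9 ± 9.70 CPM. CHAC1, often used as an ATF4 marker, was near its detection limit at 1.04 ± 0.304 against 0.357 ± 0.213 CPM, and its call was lost under 8 of 16 alternatives. The calls for ATF5 and JDP2 were each lost under 2.

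Promoters of several of these genes hold the C/EBP-ATF response element, to which ATF4 dimers bind. The letters TGATGNAA, on either strand, were found in the 300 bases around the start (250 before to 50 after) of 6 of 16 cytosolic synthetase promoters at hand, namely TARS1, IARS1, CARS1, MARS1, AARS1 and NARS1, in 3 of 11 of the serine and amino acid synthesis list, in 3 of 11 transporters and in 1 of 14 mitochondrial synthetases, but also in 3 of 11 bile acid genes (27.3%). Among the promoters of tested protein-coding genes 1.80% held it, among all 27305 promoters known to RefSeq here 3.67%, among genes called higher by 2-fold or more 4.80%, among those called lower by as much 3.47%, and among genes not called 1.57%. The windows below, from RefSeq (GRCh38.p14), show it for a synthetase (AARS1, chr16:70289671-70289711, minus strand), a stress gene (CHAC1, chr15:40953245-40953285, plus strand), a folate enzyme (MTHFD1L, chr6:150866337-150866377, plus strand) and asparagine synthetase (ASNS, chr7:97872455-97872495, minus strand). Each is 41 bases, written 5′ to 3′ along the gene's strand, with the match in capitals, which begins 187, 209, 129 and 68 bases before the start site.
AARS1: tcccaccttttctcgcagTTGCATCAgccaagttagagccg
CHAC1: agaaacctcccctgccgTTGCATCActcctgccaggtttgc
MTHFD1L: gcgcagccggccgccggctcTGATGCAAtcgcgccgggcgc
ASNS: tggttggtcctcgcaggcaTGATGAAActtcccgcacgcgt
The ASNS match differs from the other 3 within the free position, and a match describes letters in a window, not binding.

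NRF2 targets formed the other large rising group: of 33 tested members 25 rose and none fell (22 to 26 rose, with at most 1 lower, under every other scaling, tool, filter, control or left-out library, and 29 with the replicate number as a block), with a median change of 1.02. The rate-limiting glutathione enzyme is made of GCLC and GCLM. GCLC stood at 414, 661, 382 and 224 CPM in BPA and at 69.5, 85.0, 66.9 and 66.6 CPM in DMSO replicates 1 to 4 (2.55 ± 0.22, adjusted p = 6.19e-09). BPA replicate 2 was highest and replicate 4 lowest, and replicate 4 was still above every DMSO library. GCLM followed the same order, at 104, 148, 83.2 and 55.4 against 22.3, 22.6, 19.5 and 20.5 CPM.

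For reduction of thiols and quinones, TXNRD1 (2.17 ± 0.30), SRXN1 (2.03 ± 0.44), NQO1 (1.67 ± 0.34) and GSR (0.99 ± 0.12) rose. The aldo-keto reductases AKR1B10 (3.03 ± 0.49), AKR1C1 (2.60 ± 0.47) and AKR1C2 (3.11 ± 0.46) rose by 6-fold or more, although AKR1C genes are near-identical copies between which reads may be shared. NADPH-making pentose phosphate genes moved less: TKT (0.86 ± 0.10), TALDO1 (0.80 ± 0.16) and PGD (0.65 ± 0.11) rose. SQSTM1, the autophagy receptor p62 that also binds KEAP1, rose from 376, 421, 343 and 289.6 CPM in DMSO to 1854, 2404, 1555 and 1244 CPM in BPA, with no overlap (2.30 ± 0.22).

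The ferritin genes had the largest gains in reads of this group. FTL, the light chain, went from 5956 ± 1059 to 12039 ± 1148 CPM and FTH1, the heavy chain, from 2170 ± 213 to 5122 ± 563 CPM. HMOX1, the haem-degrading enzyme usually counted as an NRF2 target, did not follow: it was at 90.0, 99.2, 83.2 and 92.9 CPM in BPA and 89.9, 93.5, 72.9 and 77.1 CPM in DMSO, where the groups overlapped (0.13 ± 0.15, adjusted p = 0.531), while it averaged 258 ± 47.8 CPM in TCDD. NFE2L2, the gene of NRF2 itself, was at 175 ± 22.4 against 138 ± 10.7 CPM, and its small rise (0.35 ± 0.10) lost its call under 3 alternatives. KEAP1, its inhibitor, rose by 0.48 ± 0.09.

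The antioxidant response element to which NRF2 binds, searched as TGACNNNGC on either strand, was in 5 of 24 promoters of the list (PGD, GCLM, TXNRD1, GPX2 and CBR1), 20.8%, against 15.0% of tested protein-coding genes. Of the 5, PGD, GCLM and TXNRD1 rose, and GPX2 (adjusted p = 0.0082 with the replicate block) and CBR1 were not called. The GCLM window (chr1:93909440-93909480, minus strand) and the TXNRD1 window (chr12:104215664-104215704, plus strand) are shown because both genes rose by more than 4-fold, with the match in capitals beginning 34 and 99 bases before the start.
GCLM: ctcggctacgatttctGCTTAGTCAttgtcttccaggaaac
TXNRD1: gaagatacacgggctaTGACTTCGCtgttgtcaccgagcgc
In GCLM the match lies on the opposite strand to the gene, as the reverse complement of the letters searched.

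**Figure D2:**
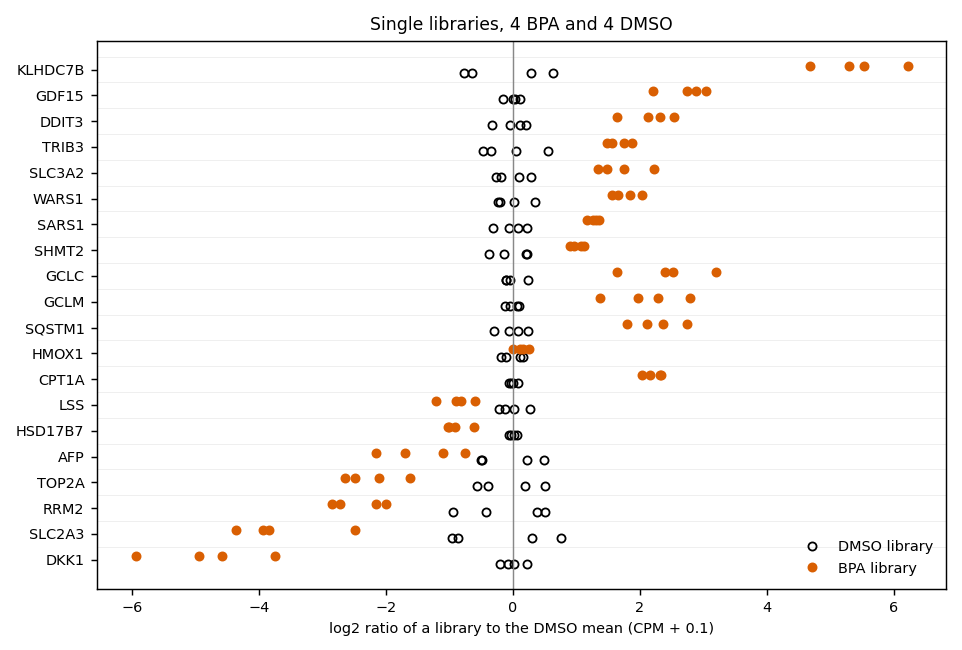
Log2 ratio of each BPA (filled) and DMSO (open) library to the DMSO mean, with a pseudocount of 0.1 CPM, for 20 genes of the report. BPA libraries lie on 1 side of all DMSO libraries for every gene shown but HMOX1.

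Protein-folding genes divided. Of 20 genes of the endoplasmic reticulum (ER), 7 rose and 1 fell (median 0.29), among them sensors, chaperones and genes of ER-associated degradation. ERN1, which encodes the sensor IRE1, went from 24.7, 27.9, 34.5 and 27.5 CPM in DMSO to 100, 121, 106 and 72.3 CPM in BPA (1.80 ± 0.17, adjusted p = 2.78e-08), and ATF6 rose by 1.24 ± 0.18. No BPA library overlapped with DMSO for ERN1. The co-chaperone DNAJB9 rose by 1.30 ± 0.17, the chaperone HYOU1 by 0.89 ± 0.19, HERPUD1, a component of ER-associated degradation, by 0.60 ± 0.13, HSPA5 (BiP), the main ER chaperone, by 0.54 ± 0.13 and CANX, calnexin, by 0.38 ± 0.12, a call lost under 3 alternatives. PDIA4 (-0.12 ± 0.14) and HSP90B1 (0.19 ± 0.16) were not called, and XBP1 fell by 0.40, a call lost under 3 alternatives. The core of the ER stress element, CCACG, was in 15 of 19 promoters at hand of this ER list (78.9%). It was in 48.4% of promoters of genes that rose by 2-fold or more and in 49.2% of those of tested protein-coding genes. The autophagy and lysosome list held it in 79.2%. Of 2 lists that mostly fell, cholesterol held it in 72.2% and mitosis in 62.5%, so the core was not particular to ER genes.

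Of 17 cytosolic heat shock genes, 2 rose (HSF1 and DNAJB4) and none fell, and their median of 0.05 became -0.08 with upper-quartile scaling. HSPA1A, the main inducible HSP70, was at 54.6 ± 8.31 against 59.3 ± 23.7 CPM. Of 31 proteasome subunit genes 2 rose and 1 fell (median 0.05, and -0.08 with upper-quartile scaling), so that the share called, unlike in the NRF2 group, was below the background. Autophagy and lysosome genes rose more often, 11 of 32 against 1 that fell (7 with upper-quartile scaling): the autophagosome marker MAP1LC3B rose by 1.77 ± 0.14, the protease CTSB by 1.94 ± 0.11 to 1847 ± 76.5 CPM, and TFE3, a regulator of lysosome genes, by 0.98 ± 0.17.

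Proliferation genes fell together. Of 35 tested DNA replication genes 32 fell and none rose (median -1.28), and of 29 mitosis genes 28 fell and none rose (median -1.37), the exception being the kinase PLK1 (-0.83 ± 0.36, adjusted p = 0.074, and 0.016 with the replicate block). RRM2, the ribonucleotide reductase subunit that limits the supply of DNA precursors, was at 33.5, 22.6, 20.8 and 37.2 CPM in BPA replicates 1 to 4 and at 213, 112, 78.0 and 196 CPM in DMSO (-2.39 ± 0.33, adjusted p = 6.29e-06). The 2 groups did not overlap, and DMSO replicates 2 and 3 were lower than replicates 1 and 4. TOP2A, the topoisomerase of dividing cells, showed the same arrangement, at 67.9, 52.5, 47.2 and 95.7 CPM in BPA against 335, 225, 198 and 418 CPM in DMSO (-2.16 ± 0.32).

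By role, the helicase loader CDT1 (-1.09 ± 0.27) and MCM2 (-1.70 ± 0.41), the helicase partners CDC45 (-1.82 ± 0.47) and GINS2 (-1.93 ± 0.49), the clamp PCNA (-1.28 ± 0.28) and the thymidine enzymes TYMS (-1.27 ± 0.22) and TK1 (-2.36 ± 0.49) all fell, and CDC6 (-0.98 ± 0.48), MCM6 (-0.83 ± 0.39) and PRIM1 (-0.67 ± 0.30) were not called (adjusted p = 0.0338, 0.0309 and 0.0211 with the replicate block). The activators E2F1 and E2F2 fell by 1.17 and 2.04, and E2F8, a repressor of the same family, by 2.65. In mitosis the cyclins CCNB1 (-1.20 ± 0.25) and CCNA2 (-1.17 ± 0.34), the kinase CDK1 (-1.66 ± 0.35), the kinesins KIF11 (-1.95 ± 0.33) and KIF20A (-1.96 ± 0.28), and MKI67, the proliferation marker Ki-67 (-1.87 ± 0.33), fell. With a library left out, 24 to 33 replication genes and 26 to 29 mitosis genes were called lower.

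Of 15 homologous recombination and checkpoint genes 12 fell and none rose (median -1.12), among them FANCI (-1.58 ± 0.29), BRIP1 (-1.91 ± 0.36) and EXO1 (-1.99 ± 0.42); without BPA replicate 3, or without DMSO replicate 4, 7 were called. The G1 genes were mixed, with 2 of 16 higher and 5 lower, and 3 lower without BPA replicate 4 or without DMSO replicate 4. CDKN2B, an inhibitor of G1 kinases, rose from 3.80 ± 0.642 to 16.9 ± 9.45 CPM, MYC rose by 0.70 ± 0.09, and CDKN2C, a related inhibitor and E2F target, fell by 1.85. CDKN1A, the p53-driven inhibitor p21, was at 311, 334, 219 and 175 CPM in BPA and 242, 255, 190.4 and 167 CPM in DMSO, overlapping, and was not called (0.28 ± 0.27, adjusted p = 0.441).

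Genes known as p53 targets fell more often than they rose, 8 against 2 of 21 (12 against 2 with upper-quartile scaling, and 12 against 3 with the replicate block). DDB2 (-1.49 ± 0.14), BTG2 (-1.25 ± 0.23) and SESN1 (-1.06 ± 0.15) fell, MDM2 (0.37 ± 0.27) was not called, and the 2 that rose, TNFRSF10B (0.87 ± 0.14) and PLK3 (1.34 ± 0.14), are also known to answer to CHOP or other stress signals. Of 16 cell death regulators 7 rose and 1 fell, 3 with the replicate block: the pro-death genes PMAIP1 (1.60 ± 0.24) and BID (0.67 ± 0.16) rose beside the protective MCL1 (0.84 ± 0.10) and XIAP (0.65 ± 0.13).

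Many promoters of the mitotic genes held the CHR element. The CHR element, TTTGAA on either strand, lay in 17 of 24 mitosis promoters at hand (70.8%), against 9.87% of those of tested protein-coding genes, 15.4% of all promoters, and 1 of 30 replication promoters (3.33%). The CCAAT box, CCAAT on either strand, was in 18 of 24 (75.0%) against 36.5%, and both were in 13 of 24 (54.2%) against 4.16%. CCAAT was also frequent in some lists outside mitosis, with no single direction of change. It was in 89.5% of the ER chaperone list and 56.7% of the replication list. Of the cholesterol list, which mostly fell, 83.3% held it. Of 2 lists that mostly rose, serine and amino acid synthesis held it in 72.7% and amino acid transporters in 18.2%. Among genes lower by 2-fold or more the share was 46.5%, and among genes higher by as much it was 27.0%. The first 80 bases upstream of the start, with both elements in capitals, are given for a cyclin (CCNB2, chr15:59105066-59105145, plus strand), the spindle bundler PRC1 (chr15:90994536-90994615, minus strand) and the kinesins KIF11 (chr10:92593050-92593129, plus strand) and KIF23 (chr15:69414269-69414348, plus strand), because they show the pair in different spacing and orientation.
CCNB2: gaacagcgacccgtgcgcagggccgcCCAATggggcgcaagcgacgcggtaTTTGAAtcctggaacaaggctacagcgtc
PRC1: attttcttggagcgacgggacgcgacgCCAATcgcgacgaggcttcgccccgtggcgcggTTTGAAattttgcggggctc
KIF11: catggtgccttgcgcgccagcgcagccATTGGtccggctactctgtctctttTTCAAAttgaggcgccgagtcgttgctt
KIF23: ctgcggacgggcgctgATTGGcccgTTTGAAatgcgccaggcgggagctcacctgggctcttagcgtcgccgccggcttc
From the first base of the CCAAT match to that of the CHR match, the distance was 25, 33, 25 and 9 bases. All 4 genes fell, CCNB2 by 1.17, PRC1 by 1.58, KIF11 by 1.95 and KIF23 by 1.28.

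**Figure D3:**
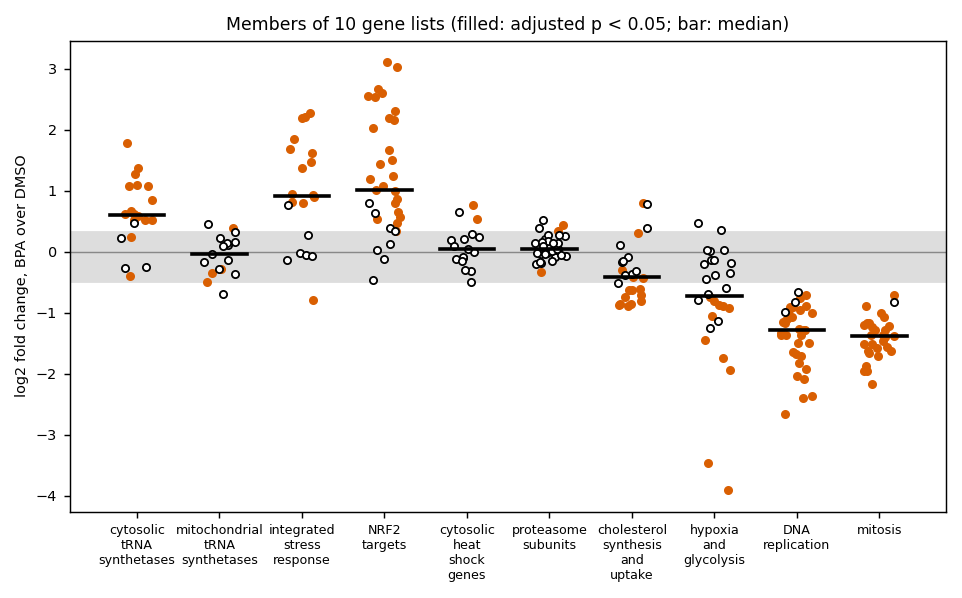
Log2 fold change of every tested member of 10 gene lists in BPA against DMSO (filled where called, open where not), with the median of each list as a bar; the grey band is the interquartile range of all tested genes. Cytosolic synthetases lie mostly above 0 and mitochondrial synthetases around it, and replication and mitosis genes lie wholly below 0.

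Lipid genes moved in several directions. Cholesterol genes mostly fell, 13 of 25 against 2 that rose (median -0.41). HSD17B7, an enzyme of the later steps, was at 30.4, 39.9, 30.1 and 32.4 CPM in BPA and 58.6, 59.5, 63.7 and 61.6 CPM in DMSO, with no overlap (-0.87 ± 0.11, adjusted p = 2.61e-06). IDI1 (-0.81 ± 0.16) and FDPS (-0.74 ± 0.18), which make the isoprenoid precursors, and LSS (-0.86 ± 0.16), which closes the sterol rings, fell with it. SREBF2, the regulator of the pathway, had a change of 0.32 ± 0.12 whose call was lost under 10 of 16 alternatives.

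Fatty acid synthesis genes did not move as a group, with 3 of 19 higher and 4 lower (median 0.08, and -0.05 with upper-quartile scaling), and 2 lower without BPA replicate 1 or BPA replicate 3. FASN (0.01 ± 0.24), SCD (-0.22 ± 0.18) and their regulator SREBF1 (0.30 ± 0.13, adjusted p = 0.0448 with the replicate block) were not called, DGAT2 (-0.80 ± 0.14), a final enzyme of triglyceride synthesis, fell, and LPIN2 (0.83 ± 0.13) rose. At the lipid droplet 6 of 14 genes rose and 1 fell (3 and 2 with upper-quartile scaling), including the triglyceride lipase PNPLA2 (0.58 ± 0.15) and its inhibitor G0S2, which went from 0.143 ± 0.107 to 0.576 ± 0.193 CPM. PNPLA3, a gene associated with fatty liver disease, fell by 0.77, and PLIN2, the main droplet coat gene, was at 495 ± 85.9 against 435 ± 64.8 CPM and was not called.

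In fatty acid oxidation 6 of 22 genes rose and 5 fell, and without BPA replicate 1, BPA replicate 2, DMSO replicate 2 or DMSO replicate 3 only 2 fell. CPT1A, the gate for long-chain fatty acids into mitochondria, rose from 27.8, 29.3, 30.7 and 28.5 CPM in DMSO replicates 1 to 4 to 119, 148, 130.1 and 145 CPM in BPA. These libraries were tightly grouped on both sides, and the change was 2.22 ± 0.17 (adjusted p = 1.11e-09). PPARGC1A, a coactivator of mitochondrial genes, rose by 1.77 ± 0.16 and ACADVL by 0.74 ± 0.14. The peroxisomal enzyme EHHADH fell by 1.15, and PPARA (0.43 ± 0.20) was not called (adjusted p = 0.037 with the replicate block).

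Among 13 apolipoprotein and assembly genes 4 rose and 5 fell. APOA2, a structural protein of HDL, was among the 6 genes named for the largest rise in reads, going from 2695, 2190, 2204 and 2326 CPM in DMSO to 4022, 3572, 3808 and 4604 CPM in BPA, and APOE rose by 0.59 ± 0.18. APOA5 (-1.57 ± 0.34), a regulator of plasma triglycerides, and APOH (from 1788 ± 494 to 892 ± 253 CPM) fell, and APOB (-0.15 ± 0.29) and APOA1 (-0.49 ± 0.27) were not called.

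Of 16 bile acid genes 5 rose and 5 fell (3 fell without BPA replicate 1 or DMSO replicate 3), and enzymes of synthesis were among both. CYP7A1, the rate-limiting enzyme of bile acid synthesis, was at 0.0887, 0.0919, 0.695 and 0.351 CPM in BPA and 2.65, 7.82, 5.14 and 0.985 CPM in DMSO (-3.84 ± 0.77, and -4.51 without BPA replicate 3), and CYP8B1, AKR1D1 and AMACR, other enzymes of the pathway, and KLB, a co-receptor in its feedback, fell by 1.07, 1.71, 1.23 and 0.88. The calls for CYP8B1 and AMACR were lost under 6 and 5 of 16 alternatives, among them leaving out BPA replicate 1, BPA replicate 2 or DMSO replicate 3. The synthesis enzymes CYP27A1 (0.44 ± 0.12) and HSD3B7 (0.25 ± 0.10, lost under 9 alternatives, including the omission of BPA replicate 3 or 4 or DMSO replicate 1 or 2) rose. SLC51B, a subunit of the basolateral exporter, rose from 4.54, 2.13, 2.08 and 4.94 to 36.7, 23.8, 22.4 and 30.2 CPM (3.05 ± 0.45, adjusted p = 1.37e-05), and the bile acid receptor FXR (NR1H4, 1.26 ± 0.20) and its target SHP (NR0B2, 0.66 ± 0.18) rose, whereas SLC51A, the other subunit of that exporter, was not called.

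Of 28 glycolysis and hypoxia genes 11 fell (39.3%, against 17.6% of all tested genes), none rose and 17 were not called (median -0.72). Without BPA replicate 1, without BPA replicate 2 or without DMSO replicate 4 the count was 5, a share near the background. SLC2A3, a glucose transporter, was at 21.4, 14.9, 20.1 and 55.3 CPM in BPA and at 383, 159.5, 169.6 and 525 CPM in DMSO, with no overlap (-3.47 ± 0.57, adjusted p = 5.06e-05). DMSO replicates 1 and 4 were more than 2 times replicates 2 and 3. CA9, the carbonic anhydrase used as a hypoxia marker, varied more still, at 0.0665, 0.161, 2.25 and 3.20 CPM in BPA and 7.77, 6.85, 15.1 and 54.4 CPM in DMSO, and its change of -3.91 ± 1.28 became -4.83 without BPA replicate 4 and -2.81 without DMSO replicate 4, with the call lost when BPA replicate 1, BPA replicate 2 or DMSO replicate 4 was left out. HK2 (-0.91 ± 0.27), PFKFB4 (-1.73 ± 0.53) and PGAM1 (-0.81 ± 0.18), 3 glycolytic genes, fell under each of these omissions. VEGFA (0.47 ± 0.24), HIF1A (0.36 ± 0.16) and GAPDH (-0.14 ± 0.21) were not called, and with the replicate block VEGFA and HIF1A had adjusted p = 0.0439 and 0.0432.

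On the side of glucose release and sensing 5 of 12 genes rose and 2 fell (median 0.69, and 0.40 without BPA replicate 4). PCK2, the mitochondrial PEP carboxykinase and an ATF4 target, rose by 1.18 ± 0.17, pyruvate carboxylase PC by 1.09 ± 0.12 and the glucokinase regulator GCKR by 1.53 ± 0.20, and IRS2, an adaptor of the insulin receptor, rose from 0.296 ± 0.110 to 1.59 ± 0.257 CPM. The receptor gene INSR rose by 0.51 ± 0.12. FBP1, a gluconeogenic phosphatase, and SLC37A4, the glucose-6-phosphate carrier of the ER, fell by 1.29 and 0.68. PCK1 (0.89 ± 0.46) and G6PC1 (0.87 ± 0.98, adjusted p = 0.0453 with the replicate block) were not called.

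Secreted liver proteins moved in both directions. Of 19 plasma carrier genes 6 fell and 2 rose (median -0.48), with none rising under upper-quartile scaling and 10 lower and 4 higher with the replicate block. AFP stood at 3381, 2453, 6480 and 5074 CPM in BPA replicates 1 to 4 and at 7746, 12808, 15347 and 7813 CPM in DMSO, with all BPA libraries lower (-1.33 ± 0.36, adjusted p = 0.00548). For ALB the BPA libraries, at 6341, 6275, 11544 and 8674 CPM, overlapped with DMSO, at 8254, 16813, 21051 and 8292 CPM, where replicates 1 and 4 were the low ones, and it was not called (-0.73 ± 0.34, adjusted p = 0.101, and 0.0214 with the replicate block). SERPINA7, the thyroxine-binding globulin, fell by 1.94, SERPINA6, the cortisol carrier, by 1.20, and TF, transferrin, by 0.99, a call lost without BPA replicate 1, BPA replicate 2 or DMSO replicate 3. Of 17 coagulation genes 4 fell (23.5%) and 3 rose (17.6%), shares near those over all tested genes (17.6% and 17.3%). The 3 fibrinogen chains FGA (-1.07 ± 0.27), FGB (-0.99 ± 0.23) and FGG (-0.95 ± 0.22) and the factor XIII subunit gene F13B (-1.15 ± 0.37, lost without BPA replicate 2 or DMSO replicate 2) fell, SERPINC1, antithrombin, rose by 1.12 ± 0.13, and the rises of F7 (0.84 ± 0.30) and PROC (0.52 ± 0.18) were each lost without BPA replicate 3, BPA replicate 4, DMSO replicate 1 or DMSO replicate 2, and F7 also without DMSO replicate 4. Of 13 complement and acute phase genes 4 rose and 4 fell (median 0.30), with 2 higher under upper-quartile factors, library size alone, or without BPA replicate 4, DMSO replicate 1 or DMSO replicate 2. Haptoglobin, HP (0.97 ± 0.38), C4B (0.65 ± 0.21), ORM1 and its near copy ORM2 rose, and the complement genes C6 (-2.25 ± 0.36), C8A (-1.08 ± 0.32), CFI (-1.28 ± 0.30) and MBL2 (-1.50 ± 0.40) fell. The call for HP was lost when any library but BPA replicate 1 or 2 was left out, and that for C4B without BPA replicate 4, DMSO replicate 1 or DMSO replicate 2.

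Of 15 hepatocyte transcription factors 4 rose and 6 fell. CEBPA (0.85 ± 0.16) and ONECUT2 (1.02 ± 0.23) rose, FOXA1 (-0.75 ± 0.20), GATA6 (-1.11 ± 0.20), HHEX (-1.16 ± 0.19) and PROX1 (-0.55 ± 0.17) fell, and HNF4A (0.48 ± 0.15) was called except with upper-quartile factors or library size alone. Of 15 genes of the urea cycle and amino acid breakdown 5 rose and 4 fell, 2 without BPA replicate 2 or DMSO replicate 2. NAGS, which makes the activator of its first step, rose from 3.47, 2.54, 4.55 and 7.23 to 56.4, 59.2, 51.1 and 45.1 CPM (3.57 ± 0.33, adjusted p = 1.11e-08) in all 4 libraries. Among enzymes of the cycle itself, ASS1 (0.62 ± 0.24) and ASL (0.59 ± 0.10) rose and ARG1 (-2.04 ± 0.80) and the scarce OTC, from 1.59 ± 0.742 to 0.175 ± 0.0930 CPM, fell. The call for ARG1 was lost when any library but BPA replicate 4 was left out, and that for ASS1 without BPA replicate 2, 3 or 4 or DMSO replicate 1 or 4.

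Genes of foreign-compound metabolism were counted by step, from oxidation (phase 1) through conjugation to export. Of 19 cytochrome P450 and reductase genes 9 rose and 1 fell (median 0.99, and 0.50 without BPA replicate 2). CYP1A1, the classic target of the aryl hydrocarbon receptor (AHR), was at 293, 462, 159 and 53.5 CPM in BPA and at 9.99, 16.9, 3.73 and 2.82 CPM in DMSO (4.86 ± 0.95, and 5.48 without DMSO replicate 2). In both groups replicate 2 was highest and replicate 4 lowest, and TCDD averaged 4613 ± 1486 CPM. CYP3A5, a drug-metabolising enzyme, rose from 3.41, 4.53, 3.77 and 1.55 to 25.7, 18.8, 14.2 and 12.3 CPM (2.42 ± 0.40), and the electron donor POR by 1.09 ± 0.12. CYP24A1, which degrades vitamin D, rose from 2.18 ± 1.38 to 68.1 ± 43.8 CPM. AHR itself rose by 0.83 ± 0.16, TIPARP (0.37 ± 0.17), another AHR target, was not called (adjusted p = 0.0343 with the replicate block), and AHRR (0.0976 CPM in BPA) and CYP1B1 (0.0960 CPM) were barely detected. The core of the AHR binding site, GCGTG, was in 6 of 8 promoters at hand of a list of AHR pathway genes (75.0%). Among promoters of tested protein-coding genes the share was 49.5%, and among those of genes that rose by 2-fold or more 48.2%. In the mitosis list, which fell, it was 70.8%. A core this frequent cannot tell AHR targets from other genes.

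Of 23 conjugation genes 3 rose and 5 fell (median -0.02), counts that held with any 1 library left out, and 5 rose with the replicate block. UGDH, which makes the glucuronic acid donor, rose by 1.19 ± 0.18, but UGT2B10 fell from 220.3, 360.3, 311 and 192 CPM in DMSO to 30.9, 22.1, 72.1 and 64.1 CPM in BPA (-2.52 ± 0.36) and UGT2B7 by 1.08, both near copies of other UGT2B genes. The main glucuronidating enzyme of BPA, UGT2B15, had at most 7 counts in any of the 8 libraries and was not tested, and UGT1A1 (7.49, 4.64, 6.46 and 6.46 against 5.57, 5.20, 3.80 and 1.69 CPM) overlapped between groups and was not called (adjusted p = 0.0163 with the replicate block). PAPSS1, which makes the sulfate donor, fell by 1.01, and SULT1A1 (0.20 ± 0.25) was not called. Among 13 ABC efflux genes 7 rose and none fell, among them ABCC3 (2.67 ± 0.19), ABCC2 (1.44 ± 0.27), ABCG2 (1.32 ± 0.18) and ABCB1 (1.07 ± 0.22), with 4 to 7 called under the other settings.

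The nuclear estrogen receptors were all but silent, ESR1 with at most 2 counts and ESR2 with at most 1 in any of the 8 libraries. The estrogen-related receptor ESRRG had at most 1 count and the progesterone receptor PGR 0, and none of these was tested. GPER1, the membrane estrogen receptor, was expressed and fell by 0.71 to 21.2 ± 4.98 CPM. Of 12 estrogen-responsive genes 2 rose and 3 fell (median -0.02): the carbonic anhydrase CA12 (2.58 ± 0.36) and the growth factor AREG (2.20 ± 0.42) rose, PDZK1 (-1.66 ± 0.42) and TFF3 (-1.34 ± 0.35) fell, and GREB1 (-0.69 ± 0.28, adjusted p = 0.0467 with the replicate block) was not called. CYP19A1, the aromatase that makes estrogens, went from 12.0, 15.9, 16.3 and 12.0 CPM in DMSO to 54.6, 75.3, 60.0 and 57.2 CPM in BPA (2.14 ± 0.18, adjusted p = 3.84e-09), and STAR, the carrier of cholesterol into mitochondria, rose by 1.46 ± 0.31.

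Of 27 tested nuclear receptor genes, counted with GPER1, 8 rose and 3 fell, 5 with the replicate block. Those that rose included the glucocorticoid receptor NR3C1 (1.06 ± 0.12), PPARD (1.12 ± 0.14), the estrogen-related receptor ESRRA (1.01 ± 0.17) and LXR alpha, NR1H3 (1.06 ± 0.15). PXR, NR1I2, was not called (-0.37 ± 0.20, adjusted p = 0.0427 with the replicate block).

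Of 17 WNT pathway genes 7 fell and none rose. DKK1, a secreted WNT inhibitor that is itself a WNT target, was at 6.90, 3.40, 8.91 and 16.0 CPM in BPA and at 187, 204, 217 and 252 CPM in DMSO (-4.61 ± 0.35, adjusted p = 6.97e-10), a separation of more than 10 times between the nearest libraries. TNFRSF19 (-2.33 ± 0.29), RNF43 (-1.17 ± 0.23) and LGR5 (-1.12 ± 0.29), all WNT-responsive, fell, and AXIN2 (-0.22 ± 0.26) was not called.

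Among hepatokines and growth factor genes 5 of 11 rose, 8 with the replicate block, and 1 fell. GDF15, a stress hormone, rose from 372, 326, 394 and 367 CPM in DMSO to 2995, 2705, 2439 and 1680 CPM in BPA with a 6.73-fold change (adjusted p = 8.55e-11). FGF21, a hormone of starvation and ATF4 target, was low and rose from 0.120 ± 0.0672 to 0.600 ± 0.112 CPM. IGFBP1, an IGF-binding protein, rose by 2.58 ± 0.84 from a DMSO level that ran from 387 to 2050 CPM, becoming 3.17 without DMSO replicate 3 and losing its call without DMSO replicate 1 or 2. Of 19 immediate early genes 11 rose and 2 fell, among them JUN (1.32 ± 0.20), EGR1 (1.22 ± 0.28) and the phosphatase DUSP1 (1.21 ± 0.17), and FOSB fell by 0.92. Of 15 NF-kappaB and chemokine genes 3 rose, 5 with the replicate block, and 3 fell, shares near the background. The cytokine feedback gene SOCS3 (2.11 ± 0.62), IL32 (0.50 ± 0.17) and C5AR1 (5.26 ± 0.45) were higher, and NFKB1 (-0.36 ± 0.14) and the NF-kappaB feedback genes TNFAIP3 (-1.33 ± 0.22) and NFKBIA (-0.50 ± 0.15) lower. The call for IL32 was lost without BPA replicate 2 or DMSO replicate 1, and that for NFKB1 when any library but BPA replicate 4 or DMSO replicate 2 was left out.

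Among metal genes, the metallothioneins MT2A and MT1E, small zinc-binding proteins with near-identical relatives, rose: MT2A was at 435, 260.2, 164 and 289 CPM in BPA and 34.9, 17.0, 21.7 and 38.7 CPM in DMSO (3.35 ± 0.52). The zinc exporter SLC30A1, which shares their zinc-sensing regulator, was not called (0.30 ± 0.22), and of the list 4 of 11 rose, 2 without DMSO replicate 2. Iron genes rose in 7 of 13 and fell in 2: the exporter ferroportin, SLC40A1 (0.89 ± 0.18), and the bilirubin-making reductases BLVRA (0.81 ± 0.14) and BLVRB (1.21 ± 0.21) rose, and the transferrin receptor TFRC fell by 0.51.

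In the network of imprinted genes, expressed mainly from a single parental copy and named in the title of the series, 3 of 15 tested genes rose and 5 fell, 3 without BPA replicate 1, BPA replicate 2, DMSO replicate 2 or DMSO replicate 3. PLAGL1, its proposed regulator, was at 1.82, 2.25, 1.66 and 1.98 CPM in BPA and 1.46, 1.22, 1.34 and 1.84 CPM in DMSO and was not called (0.40 ± 0.24, adjusted p = 0.203). PEG10, derived from a retroelement and among the 6 genes named for the largest loss of reads, fell from 2285, 3263, 4094 and 2727 CPM in DMSO to 463, 348, 698 and 1029 CPM (-2.29 ± 0.27). PHLDA2, a growth-restraining gene, rose by 1.86 ± 0.31, GRB10, an inhibitor of insulin signalling, by 1.26 ± 0.14, and IGF2 (-0.65 ± 0.57) was not called. H19 had at most 16 counts and CDKN1C at most 1 count in any of the 8 libraries, and neither was tested.

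Among the genes named by size alone, KLHDC7B (ENSG00000130487, chr22:50545891-50551023 in GRCh38), a gene of the kelch-domain family, had the largest rise of the protein-coding ones, from 0.548, 0.493, 1.13 and 1.46 CPM in DMSO to 46.8, 75.3, 39.6 and 25.9 CPM in BPA, 50.5-fold (adjusted p = 4.15e-10). OSCAR (4.58 ± 0.44), an immune receptor, C5AR1 (5.26 ± 0.45), the receptor of complement C5a and a member of the NF-kappaB list, and P2RX1 (5.39 ± 0.46), an ATP-gated channel, were at 1.12, 0.890 and 0.192 CPM in DMSO and reached 27.1, 34.9 and 8.59 CPM in BPA. The secreted factor METRNL (3.53 ± 0.31), the transporter SLC22A15 (3.89 ± 0.26) and BEX2 (3.65 ± 0.42) also rose by more than 10-fold. In each of these 7 genes BPA replicate 2 was highest and replicate 4 lowest of the BPA libraries.

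Among the largest falls were SSTR3 (-4.48 ± 0.48), a somatostatin receptor, the sodium channel gene SCN1A (-4.36 ± 0.43), the keratin-associated KRTAP3-1 (-4.64 ± 0.72), the secreted phospholipase ENPP2 (-3.30 ± 0.40, from 12.3 ± 4.90 to 1.26 ± 0.433 CPM) and the phosphatidylcholine-synthesis gene PCYT1B (-3.45 ± 0.35). FAM111B, a protease gene of dividing cells, changed by -3.29 ± 0.43, and by -4.19 without BPA replicate 4.

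**Figure D4:**
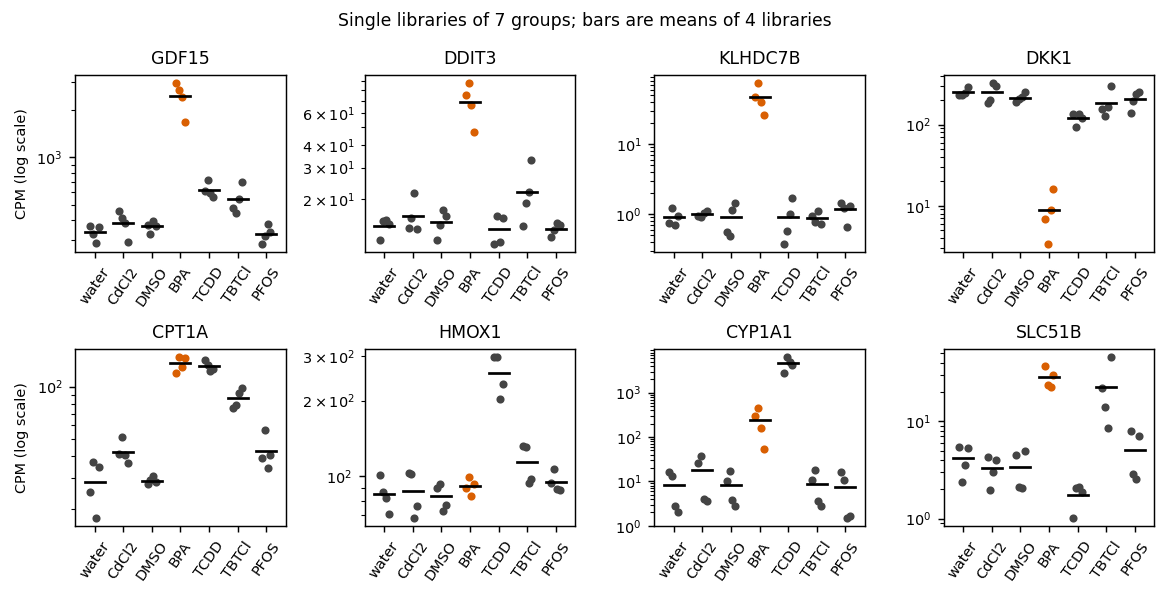
CPM (log axis) of 8 genes in each library of the 7 groups, with group means as bars. GDF15, DDIT3, KLHDC7B and DKK1 stand apart in BPA from every other group, CPT1A is about as high in TCDD, HMOX1 is raised in TCDD and not in BPA, CYP1A1 is highest in TCDD, and SLC51B is also high in TBTCl, most of all in replicate 4.

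Before the direct comparisons, TBTCl replicate 4 stood apart from the other 3 TBTCl libraries: ribosomal protein genes took 11.8% of its counts against 5.50 to 7.29%, and its scaling factor was 0.861 against 0.952 to 1.01. Set directly against the other DMSO-based compounds, BPA differed in 7218 genes from TCDD (38.3%), in 6564 from TBTCl (34.8%, 3460 in a fit of those 8 libraries alone and 5732 without TBTCl replicate 4) and in 5765 from PFOS (30.6%). In BPA 25 of 33 NRF2 targets were higher than in PFOS and none lower, 24 were higher and 1 lower than in TBTCl, and 22 were higher and 2 lower than in TCDD. For cytosolic synthetases the counts were 14, 16 and 15 higher against 1, 1 and 0 lower, and for mitosis genes 29, 27 and 27 lower with none higher, in the same order. Without TBTCl replicate 4, the counts against TBTCl were 25 higher and 0 lower for NRF2 targets, 16 and 1 for synthetases, and 0 and 27 for mitosis. DDIT3 averaged 13.8 ± 2.59 CPM in TCDD, 22.1 ± 7.96 in TBTCl and 13.8 ± 1.07 in PFOS, each below BPA (adjusted p = 6.87e-09, 2.30e-06 and 1.66e-08).

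Some genes that BPA raised over DMSO did not differ from another compound beyond the spread. CPT1A averaged 130.2 ± 8.28 CPM in TCDD, and the difference BPA minus TCDD was 0.06 ± 0.17 (adjusted p = 0.811). CYP19A1 averaged 72.1 ± 12.9 CPM in TCDD (-0.22 ± 0.17, adjusted p = 0.319). SLC51B was at 21.8, 14.1, 8.61 and 46.0 CPM in TBTCl replicates 1 to 4 (0.32 ± 0.41, adjusted p = 0.572), with the difference at 0.93 (adjusted p = 0.0843) without TBTCl replicate 4, but averaged only 1.77 ± 0.513 CPM in TCDD. APOA2 was at 3473, 3355, 3806 and 8485 CPM in TBTCl (-0.26 ± 0.21, adjusted p = 0.351), and there the sign turned without replicate 4 (0.17, adjusted p = 0.353). In both genes TBTCl replicate 4 was the highest of its group. A p that misses the threshold does not show equal levels. HMOX1 was lower in BPA than in TCDD (-1.50 ± 0.15, adjusted p = 3.66e-08), and NFE2L2 was also lower in BPA than in TCDD, where it averaged 230.0 ± 18.2 CPM. Cholesterol genes were lower in BPA than in TBTCl in 14 of 25 and higher in 3 (12 and 4 without TBTCl replicate 4), but against TCDD 4 were lower and 6 higher.

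**Figure D5:**
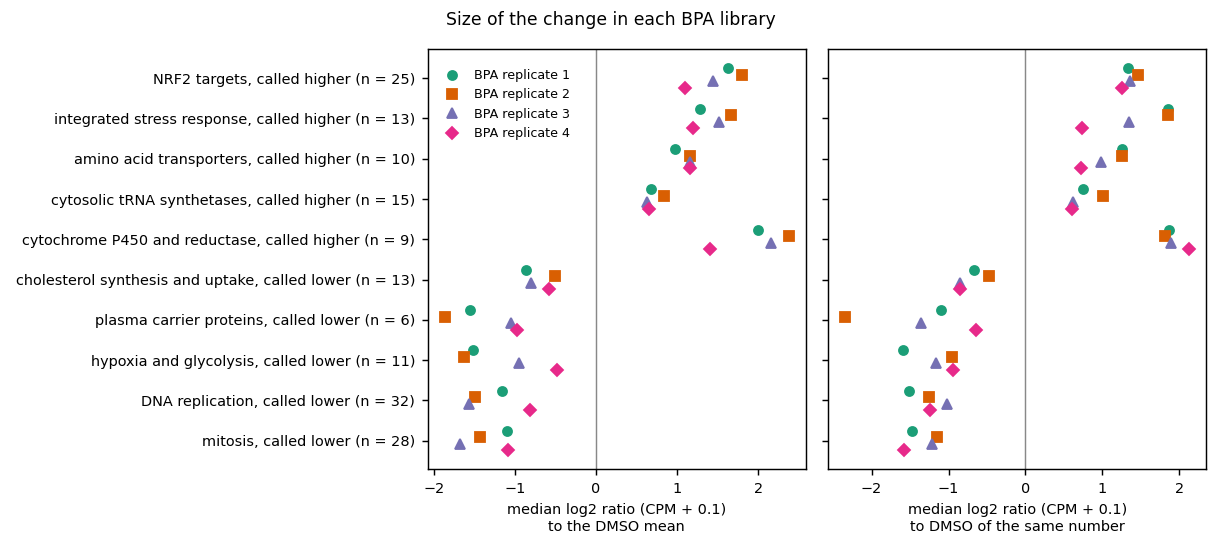
Median log2 ratio (pseudocount 0.1 CPM) of each BPA library to the DMSO mean (left) and to the DMSO library of the same replicate number (right), for the called members of 10 gene groups. On the left replicate 4 has the smallest fall for replication and glycolysis genes, and on the right replicate 3 has the smallest fall for replication and replicate 4 the largest for mitosis.

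The size of the change in each BPA culture was set against the DMSO mean and, as an alternative chosen after seeing the data, against the DMSO culture of the same number. By the DMSO mean, the median log2 ratio of the 25 NRF2 targets that rose was 1.63, 1.80, 1.44 and 1.10 in BPA replicates 1 to 4, and within pairs it was 1.34, 1.46, 1.36 and 1.26. For the 13 stress response genes that rose it was 1.29, 1.67, 1.52 and 1.20 by the mean and 1.86, 1.86, 1.35 and 0.74 within pairs. Replicate 4 had the smallest value both ways, with the gap narrower within pairs for NRF2 targets and wider for stress response genes.

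For the 28 mitosis genes that fell, the values by the mean were -1.09, -1.44, -1.67 and -1.09, lowest in replicate 3, but within pairs -1.48, -1.15, -1.21 and -1.58. The 11 glycolysis and hypoxia genes that fell stood at -1.52, -1.63, -0.95 and -0.48 by the mean and at -1.59, -0.95, -1.16 and -0.94 within pairs. The order of the BPA cultures for falling genes thus depended on which DMSO libraries they were set against. Some rising sets changed order too. For the 9 cytochrome P450 and reductase genes that rose, replicate 4 was smallest by the mean (1.405) and largest within pairs (2.13). Amino acid transporters were at 0.97, 1.16, 1.16 and 1.16 by the mean and at 1.26, 1.25, 0.99 and 0.73 within pairs. Of 37 sets of called genes the change was smallest in replicate 4 in 23 by either measure. These values describe genes chosen for their change and carry no test.

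The direction of change also depended on the kind and level of gene. Of 13414 protein-coding genes 2924 rose and 2001 fell (median 0.07), of 1699 antisense genes 90 rose and 603 fell (median -0.65), and of 1008 lincRNA genes, long RNAs between genes, 73 rose and 244 fell (median -0.36). Whether reads were counted by strand is unknown here, so those of an antisense gene and of its partner may not be told apart. Antisense genes held 0.311 ± 0.024% of counts in BPA and 0.406 ± 0.018% in DMSO, with no overlap (exact two-sided permutation p = 0.0286, the smallest that 4 against 4 libraries can give, adjusted over 6 gene classes 0.171), and the ribosomal protein and mitochondrially encoded shares overlapped. The antisense share in water, 0.324 to 0.406%, did overlap with BPA, at 0.279 to 0.335%. PFOS and TBTCl libraries also overlapped with BPA in this share, and TCDD and CdCl2 libraries did not. Among protein-coding genes, the fifth with the lowest levels had a median change of -0.26 with 21.9% lower and 9.77% higher, and the fifth with the highest levels had 0.14 with 9.32% lower and 27.9% higher. By gene span, the medians of 5 equal groups of genes lay between 0.03 and 0.09.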

How the data were processed

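Poly(A) RNA of 28 cultures was sequenced as directional, paired-end libraries, per the labels. The authors deposited whole-number read counts per gene and library. As tools, the submitters' processing notes list fastp, HTSeq, STAR and DESeq2, and GRCh38 as the build. Their versions, the strand setting and the annotation release were "not given in the sources used here". Of 63140 entries the last, cut off at the end of the table, was left out. Libraries were grouped by their labels, which, per the series text, were swapped between TCDD and PFOS after deposit and are used as they now stand. Symbols were available for 62541 identifiers, gene types for 58126 (GENCODE 29), and promoter windows came from RefSeq (GRCh38.p14).

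Counts were analysed in R 4.3.3 with edgeR 4.0.16: TMM factors, filterByExpr with a minimum count of 10, which kept 18849 genes with 99.96% of counts, and a quasi-likelihood fit of 7 group means with 21 residual degrees of freedom (common biological coefficient of variation 22.0%). The procedure was tested on simulated data. At an unadjusted p under 0.05, 8374 genes passed for BPA against DMSO. Deviations of BPA and DMSO libraries with the same number correlated at 0.173 to 0.269, and those with different numbers at -0.200 to 0.125. The numbers were therefore taken to pair them, though the labels do not state it, and the replicate block was run beside the main fit. Library pairs within BPA and within DMSO all differed by more than counting noise, so none was counted as 1 sample.

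The BPA libraries, the gene lists and the genes named were chosen with earlier results of these data known. Genes named were the 12 largest rises and falls among protein-coding genes of at least 5 CPM without overlap, the 6 largest gains and losses in CPM, the 3 called members with the smallest p of each list, a fixed set of receptors and markers, and further list members chosen for their role. List counts and medians carry no test. Alternatives were other scaling factors, no filter, DESeq2 1.42.0, the 8 libraries alone, the replicate block, water as control and each library left out. Some genes of the lists are not reported here by name, though the counts over lists include them.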

Additional observations from a re-analysis of the deposited data

Results flagged for a closer look

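In 16 of 588 tested groups of 4 libraries, the CPM of 1 library lay apart from the other 3, with a gap to its neighbour above Dixon's 95% critical value; chance alone gives about 5% of groups, which is more than were found. In BPA replicate 4 this held for 6 genes: FAM111B (2.73 CPM, the others 0.530 to 0.776), SLC2A3 (55.3, the others 14.9 to 21.4), SHMT1 (43.0, the others 27.7 to 29.5), PRIM1 (7.35, the others 4.90 to 5.22), FARSA (170.1, the others 150.0 to 153) and NFKBIA (55.2, the others 48.4 to 49.3). It was the BPA library nearest to DMSO for each of these except FARSA, where it was the farthest.

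In the other BPA libraries it held for SREBF2 (334 CPM in replicate 1, the others 395 to 402), YARS1 (326.0 in replicate 1, the others 347 to 351) HYOU1 (1060 in replicate 2, the others 852 to 865) and UGT2B7 (31.2 in replicate 3, the others 22.5 to 22.9). Among the DMSO libraries, PHLDA2 was at 7.19 CPM in replicate 1 (the others 3.01 to 3.69), GCLC at 85.0 in replicate 2 (the others 66.6 to 69.5), NFKB1 at 48.8 in replicate 2 (the others 58.4 to 59.9) and MYC at 188 in replicate 3 (the others 166 to 169). DMSO replicate 4 stood apart for SLC7A11 (98.7 CPM, the others 43.4 to 51.7) and DNAJB4 (9.17, the others 14.5 to 15.1).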

How the results depend on the processing

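The number of genes called for BPA against DMSO was 6588, 8084 with the replicate block (4043 higher, 4041 lower), 6975 with DESeq2, 7075 from the 8 libraries alone, 5657 without a filter, 5959 against water and 5253 to 6110 with a library left out. Library size alone gave 2169 higher. For BPA against TBTCl the fit of 8 libraries gave 3460 calls, 1680 higher and 1780 lower, against 6564, and the cause was not tested. Of 251 called genes named in the text, 225 kept the call in all 16 alternatives and none lost it with the replicate block or DESeq2. Many of these genes were named for a large change or a small p in these same data, so that share does not carry over to all called genes. Near 0, direction was not stable, the cause was not tested and none of these was called: FASN (-0.105 with library size alone, -0.0113 without a filter, -0.0043 from 8 libraries, -0.111 with upper-quartile factors, -0.0350 against water), SLC38A2 (-0.0012 and -0.0066 with library size alone and upper-quartile factors) and, against water, EIF2AK1 (0.0543), EIF2AK3 (0.0908), HSPA1A (0.37) and the processed pseudogene share of counts (0.00649 percentage points). With a library left out, log2 changes ran from -0.10 to 0.13 for FASN, from -0.23 to 0.0096 for APOB, from -0.0860 to 0.0484 for EIF2AK1, from -0.86 to 0.0755 for SLC51A and from -0.35 to 0.11 for HSPA1A, and the difference in the protein-coding share ran from -0.327 to 0.155 percentage points. Depth limits genes near the floor, such as CA9 and CHAC1, and a single line, dose and time limit the rest.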

Other observations

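Several gene groups stood outside the main themes. Of 14 circadian clock genes 4 rose and 3 fell, and 2 to 4 rose with 1 to 3 lower under the alternatives. BMAL1, the activator at the core of the clock, stood at 2.82, 3.47, 2.55 and 3.22 CPM in BPA replicates 1 to 4 and at 6.34, 7.67, 6.18 and 5.55 CPM in DMSO, a change of -1.09 ± 0.17 (edgeR adjusted p = 3.54e-05) with no overlap between the groups. NFIL3, a repressor of clock output genes, rose from 49.2 ± 8.76 to 116 ± 13.3 CPM (1.23 ± 0.22), and the repressor CRY1 rose by 0.63 ± 0.14. All cultures were collected at a single time.

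Of 77 genes of cytosolic ribosomal proteins 5 rose and none fell (median 0.25). The number that rose was 2 without BPA replicate 3, BPA replicate 4 or DMSO replicate 4, 2 with upper-quartile factors and 28 in a fit of the 8 libraries alone. Of 32 nuclear genes for respiratory chain subunits 2 rose and 1 fell (median -0.07), a share below the background. Among 9 tested sodium channel genes, counting accessory subunits and the epithelial SCNN1A, 3 fell and 1 rose (3 with the replicate block). SCN9A, a channel of sensory neurons, went from 19.4, 22.2, 33.3 and 25.2 CPM in DMSO to 8.54, 7.74, 11.6 and 13.1 CPM in BPA (-1.29 ± 0.21, adjusted p = 4.42e-05), again without overlap. Of 9 DNA methylation genes 2 fell, among them HELLS, a chromatin remodeller of dividing cells, by 1.60 to 7.63 ± 2.34 CPM. Of 19 tested YAP and TGF-beta target and matrix genes, the growth factor TGFB1 (0.98 ± 0.22) and its target TGFBI (0.83 ± 0.19) rose and 2 genes fell.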
